A study of Xenopus tropicalis with 18 samples.

Results

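The 100 genes with the most counts in laser-captured urostyle tissue of Xenopus tropicalis held 45.3% ± 10.3 (SD, n = 12 libraries) of all counts. They were selected on measured values. Each library's counts were divided by the library total and multiplied by 1000000 to give CPM, the last 37 rows of the table were set aside, and the 100 rows of highest mean CPM over 12 libraries were taken from the 19884 that remained of 19921. Their levels and their share of the counts are therefore described here without a test.

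The urostyle is the rod of bone behind the vertebral column of frogs. It forms during metamorphosis, while the tail is resorbed, from a dorsal part, the coccyx, which is vertebral in origin, and a ventral rod of cartilage, the hypochord, which later ossifies. In cartilage and bone, genes for matrix proteins and for the translation machinery are commonly among the most abundant transcripts.

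Both tissues were captured by laser from frozen sections of wild type (WT) animals, for which the labels name no treatment, at stage 56 (replicate 1), stage 58 (replicate 2), stage 61 (replicates 1 and 2) and stage 65 (replicates 1 and 2), so that each tissue had 6 libraries. The design text counts 3 stages, and the single libraries of stages 56 and 58 were joined as the early period. The amplified low-input cDNA libraries carried no molecular identifiers, and nothing in the labels says that the replicates came from separate animals. The spread behind each p-value is thus the spread among these libraries, and it may be technical.

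The 12 libraries held between 1918822 and 7271829 counts, and the widest 95% Wilson interval of a library's share reached 0.0689 percentage points to either side, which covers counting error only. A further 6 libraries of replicate 3 held between 10418992 and 17125833 counts in a table of 21458 rows. Its identifiers could not be joined to those of the other 12 libraries: over the 11315 shared identifiers, the mean CPM of the tables had a Spearman rho of 0.0124, across genes. None of the 19921 identifiers was found among the 28858 genes of the RefSeq table (assembly UCB_Xtro_10.0), and no file gives a symbol beside an identifier. The identifiers in 1 of the tables may thus stand beside the counts of other genes, and which table that would be could not be settled, so each identifier printed here is only the one that stands in the table of the 12 libraries. The members are called by their rank, rank 1 having the highest mean CPM. No gene role can be given, and the labelled tissues could not be checked against marker genes. The ranking uses counts that are not divided by transcript length, so it orders counts and not molecules. Both stage 61 replicate 2 libraries stood apart in the members' share, as described next. The early hypochord libraries detected the fewest genes, 7376 and 7508 with at least 1 count. The later hypochord libraries detected 11003 to 11644 and the coccyx libraries 13246 to 13919, so the tissues did not overlap in this.

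In coccyx the members held 39.7% of the counts at stage 56, 40.2% at stage 58, 42.5% and 61.5% at stage 61 in replicates 1 and 2, and 40.8% and 29.0% at stage 65. In hypochord they held 43.7%, 52.6%, 41.9%, 66.1%, 47.0% and 38.6% in the same order. Stage 61 replicate 2 was the highest library of each tissue, and stage 65 replicate 2 the lowest. The coccyx libraries averaged 42.3% ± 10.6 and the hypochord libraries 48.3% ± 9.94 (SD, n = 6 each), and the ranges of the tissues overlapped. Within the 6 pairs of the same stage and replicate, hypochord minus coccyx was 3.99, 12.4, -0.569, 4.57, 6.24 and 9.61 percentage points, so 5 of 6 pairs were higher in hypochord.

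**Figure D1:**
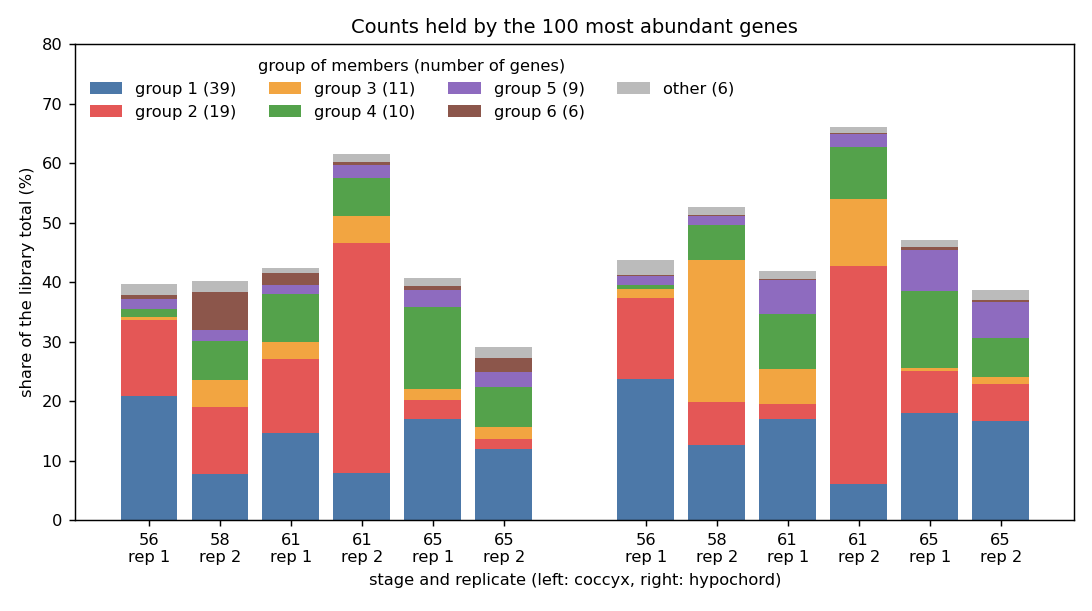
Share of each library's counts (%, vertical axis) held by the 100 members in the 12 libraries, 6 of coccyx at the left and 6 of hypochord at the right, by stage and replicate. Colours divide the members into groups by how their levels moved together, and the tallest bars, 61.5% and 66.1%, are those of stage 61 replicate 2.

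Counts were concentrated in few genes. The single most abundant member held 3.41% of the counts on average, the first 10 held 15.2%, the first 50 held 34.6%, and the 1000 rows of highest mean CPM held 76.2%. At the limit of the list, rank 99 (ENSXETG00000016248) averaged 1453 CPM and rank 100 (ENSXETG00000024806) 1438 CPM, while the first rows left out, ENSXETG00000008124 and ENSXETG00000006737, averaged 1418 and 1414 CPM.

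A measure that does not use the list is each library's share in its own 100 most abundant genes. That share averaged 45.8% ± 9.96 in coccyx and 53.3% ± 9.60 in hypochord (SD, n = 6 each). Each of these hypochord libraries detected fewer genes than each coccyx library, and the part of this in the share was not tested. Coccyx minus hypochord was -7.47 percentage points, with p = 0.167 in an exact two-sided permutation test that reassigned tissue inside each stage, which has 144 arrangements and a smallest possible p of 0.0139. Without coccyx stage 61 replicate 2 the difference was -11.1 points, and without hypochord stage 61 replicate 2 it was -4.10. With the labels swapped within the pairs of stage and replicate, hypochord was higher in 6 of 6 pairs and the exact p was 0.0312, the smallest that 64 arrangements allow. The replicate 3 libraries averaged 48.3% in coccyx and 50.7% in hypochord, a difference of -2.32 points (exact permutation p = 0.75, with a smallest possible p of 0.25).

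All 100 members had counts in every library, and all passed the filter on low counts. The lists behind them still differed by library: between 65 and 82 members were in a library's own top 100. In all, 30 members were in the own top 100 of all 12 libraries, and 5 were in that of fewer than 4. The ratio of the highest to the lowest CPM was above 4 in 82 members, above 10 in 53, above 100 in 20 and above 1000 in 3. With any 1 library left out of the ranking, 94 to 98 of the 100 members stayed, the fewest without hypochord stage 65 replicate 1. Ranking by the median CPM kept 82.

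Rank 1 (ENSXETG00000003374) was the most abundant gene in 6 of 12 libraries and stood at position 103 in the library where it was lowest. In coccyx it measured 5238 CPM at stage 56, 25951 at stage 58, 45886 and 28312 at stage 61, and 70580 and 30237 at stage 65. In hypochord the values were 1620, 19376, 55608, 42793, 56132 and 27908 CPM. Both stage 56 libraries were the lowest of their tissue, and the tissues overlapped at stages 61 and 65. From the early period to stage 61 its log2 fold change was 1.51 ± 1.25 in coccyx (adjusted p = 1) and 2.20 ± 1.27 in hypochord (SE; adjusted p = 0.294), by edgeR's quasi-likelihood test with Benjamini-Hochberg adjustment over 11729 genes. Neither passed the threshold of 0.05.

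In the other 6 libraries a different member came first. Rank 2 led both stage 56 libraries and both stage 61 replicate 2 libraries. Rank 50 led coccyx stage 58, where it held 3.64% of the counts, and rank 4 led hypochord stage 58 with 5.36%.

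Over the 12 libraries the members fell into 10 groups when they were joined by the correlation of log2(CPM + 1), with average linkage and a limit of 0.5 on 1 minus Pearson's r. The 6 largest groups held 94 members. These groups were formed from the values they are described by, so their levels, signs and medians carry no test. The libraries share tissue, stage and replicate, and all members of a group share the same 12 libraries.

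**Figure D2:**
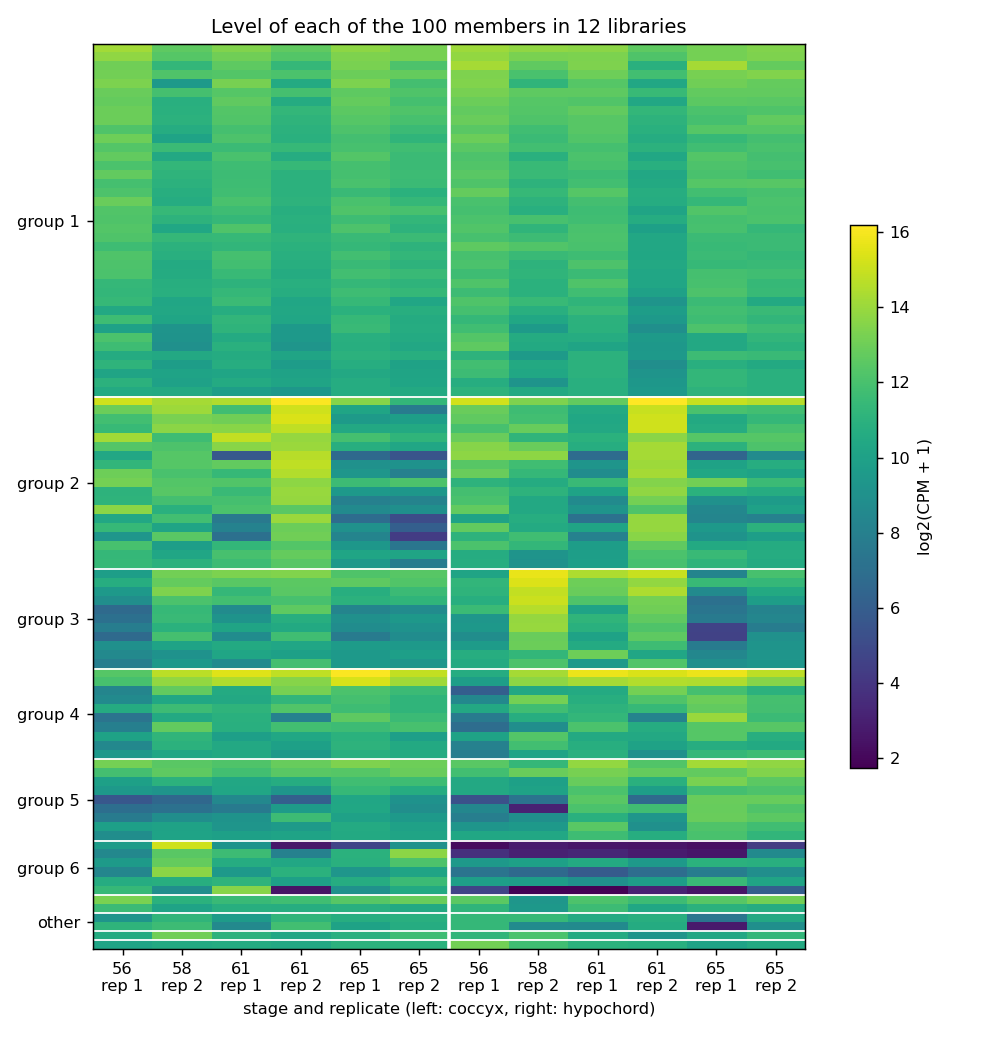
Level of each of the 100 members (rows, ordered by group and then rank) in the 12 libraries (columns, coccyx left and hypochord right), as log2(CPM + 1). Group 1 is the most even across libraries, though its summed share is higher in replicate 1 in every period and tissue. Group 2 is brightest at stage 61 replicate 2, and 4 of the 6 rows of group 6 (ranks 50, 72, 92 and 99) are darker in hypochord than in most coccyx libraries.

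Group 1, with 39 members, was the steadiest. The ratio of the highest to the lowest library had a median of 4.23 over its members, and 24 of the 39 were in the own top 100 of all 12 libraries. Rank 37 varied least of all members, by 2.72-fold. The group held 20.9%, 7.76%, 14.6%, 7.91%, 17.1% and 12% of the counts in the coccyx libraries (stage 56 replicate 1, stage 58 replicate 2, stage 61 replicates 1 and 2, stage 65 replicates 1 and 2). In hypochord it held 23.7%, 12.7%, 17.0%, 6.16%, 18.1% and 16.6%. In every period and tissue the replicate 1 library was the higher of the pair.

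Group 2, with 19 members led by ranks 2, 6, 7 and 8, was highest in stage 61 replicate 2. It held 12.7%, 11.3%, 12.5%, 38.6%, 3.07% and 1.72% of the counts in coccyx and 13.6%, 7.14%, 2.53%, 36.5%, 6.97% and 6.31% in hypochord. The stage 61 replicate 2 libraries thus held about as much as each other and far more than the stage 61 replicate 1 libraries. Rank 2 measured 36133, 19508, 22208, 69206, 12317 and 2510 CPM in coccyx and 37267, 10667, 6789, 74481, 32496 and 25072 CPM in hypochord. Its stage 61 replicates differed more in hypochord than in coccyx. Rank 17 of this group measured 53 and 24967 CPM in coccyx and 112 and 19292 CPM in hypochord at stage 61 in replicates 1 and 2, so that replicates of 1 stage lay far apart while the tissues lay close together.

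Group 3, with 11 members led by ranks 4 and 12, was highest in hypochord at stage 58. It held 0.553%, 4.49%, 2.84%, 4.60%, 1.86% and 2.01% in coccyx and 1.65%, 23.9%, 5.85%, 11.3%, 0.519% and 1.22% in hypochord. Hypochord was higher than coccyx in every pair up to stage 61, and lower in both pairs at stage 65. Rank 4 measured 924, 8857, 10513, 11372, 4762 and 5537 CPM in coccyx. In hypochord it measured 1176, 53586, 21480, 32628, 306 and 4044 CPM. In hypochord the stage 58 library was the highest and that of stage 65 replicate 1 was the lowest.

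Group 4, with 10 members including ranks 1 and 3, held its lowest share at stage 56 in both tissues, 1.41% in coccyx and 0.626% in hypochord. In the other libraries it held 5.93% to 13.8%. Group 5, with 9 members led by ranks 11 and 18, held 1.36% to 2.88% in coccyx. In hypochord its share was 1.47%, 1.5%, 5.72%, 2.14%, 7.04% and 5.99%, so both early libraries and stage 61 replicate 2 were at the coccyx level and the other 3 were above it. Group 6, with 6 members (ranks 50, 72, 73, 92, 93 and 99), held 0.461% to 6.45% in coccyx and 0.178% to 0.514% in hypochord. Its ranks 73 and 93 were not low in hypochord and overlapped between the tissues.

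The replicates of each period were also compared with each other, tissue by tissue. Members were counted where replicate 2 was over 4-fold above or below replicate 1, in CPM + 1, in the same direction in both tissues. For the early period, where the replicates are also stage 58 and stage 56, there were 12 above and 5 below. At stage 61 there were 13 and 2, and at stage 65 there were 2 and 0. Over the 11569 genes with at least 10 counts in at least 2 libraries, the shares were 2.56% and 3.39%, 0.709% and 1.63%, and 0.346% and 0.0951%. No member was over 4-fold apart in opposite directions in the tissues, in any period. The sign of the difference was the same in both tissues for 88, 85 and 72 of the 100 members, so at stage 65 it differed in 28. Among those genes the shares were 47.6%, 64.6% and 55.9%. A gene without counts in both replicates of a tissue has no sign and no 4-fold difference there, which tends to lower the shares over all genes. The early hypochord libraries detected only 7376 and 7508 genes, while all members had counts in every library. The shares are thus not on equal terms, and the size of this effect was not tested.

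**Figure D3:**
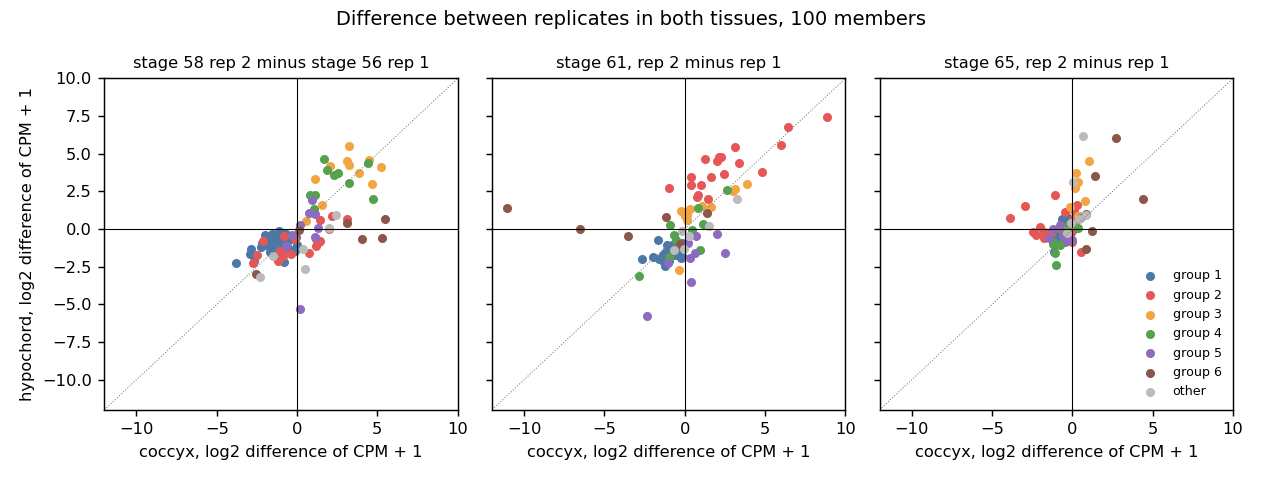
Replicate 2 minus replicate 1 in log2(CPM + 1), for coccyx (horizontal) and hypochord (vertical), 1 point per member, in the early period, at stage 61 and at stage 65. The sign of the difference is the same in both tissues for 88, 85 and 72 of the 100 points, and most of group 2 lies at the upper right at stage 61. At that stage 13 of the 100 members, not all of them from group 2, are over 4-fold higher in replicate 2 of both tissues.

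The sum of squares of each member's log2(CPM + 1) over the 12 libraries was divided into tissue, period, their interaction, replicate within period, and the rest. In that order the parts have 1, 2, 2, 3 and 3 degrees of freedom, or 9.09%, 18.2%, 18.2%, 27.3% and 27.3% of them. A part with more degrees of freedom tends to be larger, so the parts of the members are set beside those of all genes. The members were ranked by mean CPM over these same libraries, so a gene far higher in a few of them could enter the list. All members had counts in every library, while the early hypochord libraries detected only 7376 and 7508 genes. The part of both in the differences was not tested, and nothing is read from them. Replicate within period took a median of 44.1% in the members against 23.2% over the same 11569 genes. Tissue took 3.16% against 11.8%, and period 28.2% against 17.8%. Tissue by period took 8.21% against 10.8%, and the rest 7.44% against 10.8%. Replicate within period was the largest part in 63 members, period in 27, tissue in 5, tissue by period in 4 and the rest in 1. Over all genes the shares were 34.1%, 21.9%, 22.7%, 11.9% and 9.37%. Without the 4 stage 61 libraries, an alternative chosen after seeing the data, replicate within period took 42.2% in the members against 18.4% over all genes. It was the largest part in 52 members. The list was not chosen anew for this split. In the early period this replicate difference is also one of stage, and the labels do not say what the replicates shared.

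The comparison of coccyx with hypochord asks which genes mark the dorsal and the ventral part of the urostyle. The ranking used the mean over both tissues, so a gene could enter the list largely through 1 library. In 6 members (ranks 30, 50, 66, 72, 92 and 99) a single library held more of the summed CPM than all the others together. Of these, rank 30 stayed in the list whichever library was left out, while some members outside the 6 did not. Ranked within each tissue, 78 of the 100 members were among the 100 highest of both. A member outside this set could enter the list through the tissue in which it was high. Its tissue difference can thus be in part fixed by the choice and is described without a test. Rank 100 was outside the 100 highest of both tissues, at positions 107 and 101 in coccyx and hypochord. The set of 78 was drawn from the same libraries, and a place in it limits how far a member can differ between the tissues. Few calls inside it were thus favoured by the choice, and its counts are described only. The counts of members called in the reported fit are given beside the share called among all 11729 genes tested, and nothing is read from them. For some alternatives only the members' count is given, and nothing is read from those counts either. Over the mean of the 3 periods, 4 of 100 members were higher in coccyx, where 18.5% of all genes were called, and 3 were higher in hypochord, where 0.588% were called. None of these 7 was among the 100 highest of both tissues. Of the 78 that were, edgeR called 0, with 3 at an unadjusted p under 0.05, and DESeq2 called 4. With the libraries scaled to their total counts in place of TMM (trimmed mean of M-values), the counts were 4 and 0. Under TMM the median log2 fold change over all genes tested was 0.51, so zero was not the level of the typical gene. The pairing of the tissues by stage and replicate, as a block in the fit, gave 8 members, 2 higher in coccyx and 6 in hypochord, with 5.66% of all genes called. DESeq2 called 16 members, with 25.9% of all genes called. The count of 7 went to 4 without coccyx stage 56, either coccyx library of stage 61 or either of stage 65, to 3 without hypochord stage 65 replicate 2, to 2 without hypochord stage 61 replicate 1 and to 1 without hypochord stage 65 replicate 1. Without both stage 61 replicate 2 libraries, an alternative chosen after seeing the data, it was 4. In bulk tissue, fewer cells of a type and less RNA per cell cannot be told apart.

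The 4 members on the coccyx side belonged to group 6. Rank 50 (ENSXETG00000025326) measured 826, 36437, 580, 5, 24 and 533 CPM in coccyx and 4, 6, 5, 5, 4 and 19 CPM in hypochord. A single library, coccyx stage 58, was far above all the others, while coccyx stage 61 replicate 2 was at the hypochord level. Behind these values stood 209220 counts in coccyx stage 58 and 11 to 45 counts in each hypochord library. Its mean log2 fold change, coccyx over hypochord, was 7.11 ± 1.38 (SE), and 5.61 with the pair block. In 5 of 6 pairs it was higher in coccyx. Here and for the members below, pairs were counted on TMM-normalised CPM, while the CPM printed are by total counts. By mean CPM it stood at position 16 in coccyx and 6654 in hypochord, and without coccyx stage 58 it was not in the list.

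Rank 72 was higher in coccyx in 6 of 6 pairs, with 354, 5748, 3142, 268, 1992 and 12981 CPM against 13, 7, 9, 6, 5 and 398 CPM in hypochord. The lowest coccyx library was below the highest hypochord library, that of stage 65 replicate 2. Its log2 fold change was 6.86 ± 1.20 (SE), and 6.71 with the pair block. It stood at position 33 in coccyx and 1518 in hypochord, and without coccyx stage 65 replicate 2 it was not in the list.

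Rank 99, the member at the limit of the list, measured 2719, 461, 12165, 5, 538 and 1442 CPM in coccyx and 25, 2, 2, 8, 5 and 66 CPM in hypochord. Coccyx stage 61 replicate 1 held most of its level, and coccyx stage 61 replicate 2 was among the hypochord values. The log2 fold change was 6.93 ± 1.49 (SE), with 5 of 6 pairs higher in coccyx, and 5.88 with the pair block. Without coccyx stage 61 replicate 1 it was 3.67. The gene was not in the list without that library, nor without coccyx stage 56 or coccyx stage 65 replicate 2.

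Rank 92 measured 335, 13184, 764, 2002, 636 and 1168 CPM in coccyx and 154, 103, 56, 121, 232 and 464 CPM in hypochord. It was higher in coccyx in 6 of 6 pairs, and coccyx stage 58 was far above every other library. The log2 fold change was 3.48 ± 0.81 (SE), and 2.87 with the pair block. Without coccyx stage 58 it was 1.97, and the gene was not in the list. In these 4 members the hypochord libraries reached at most 464 CPM, and the highest coccyx library was that of stage 58 in ranks 50 and 92, of stage 61 replicate 1 in rank 99 and of stage 65 replicate 2 in rank 72.

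The 3 members on the hypochord side belonged to group 5, and they too were outside the 100 highest of the other tissue. Rank 79 (ENSXETG00000033310) measured 51, 95, 357, 68, 1257 and 549 CPM in coccyx and 40, 151, 5729, 104, 7429 and 7357 CPM in hypochord. In hypochord 3 libraries were high, stage 61 replicate 1 and both of stage 65, and the tissues overlapped. Its log2 fold change was -2.61 ± 0.79 (SE), with 5 of 6 pairs higher in hypochord, and -2.13 with the pair block. Without hypochord stage 61 replicate 1 it was -1.25. The gene was not in the list when hypochord stage 65 replicate 1 or replicate 2 was left out of the ranking.

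Rank 86 (ENSXETG00000015289) showed a smaller and more even difference, with 449, 1109, 980, 1128, 1468 and 1140 CPM in coccyx and 1277, 1362, 3304, 1735, 4161 and 2429 CPM in hypochord. Every pair was higher in hypochord, by a mean log2 fold change of -1.34 ± 0.42 (SE), and by -1.38 with the pair block. It stood at position 129 in coccyx and 78 in hypochord. Rank 77 measured 726, 589, 1234, 607, 2769 and 1645 CPM in coccyx and 1421, 1056, 4323, 918, 3736 and 4490 CPM in hypochord. It was also higher in hypochord in 6 of 6 pairs, by -1.30 ± 0.39 (SE), and stood at positions 108 and 69. The pair block also called ranks 30, 61 and 91 of group 3, with log2 fold changes of -1.66, -1.27 and -1.26; of these, ranks 61 and 91 were outside the 100 highest of coccyx.

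**Figure D4:**
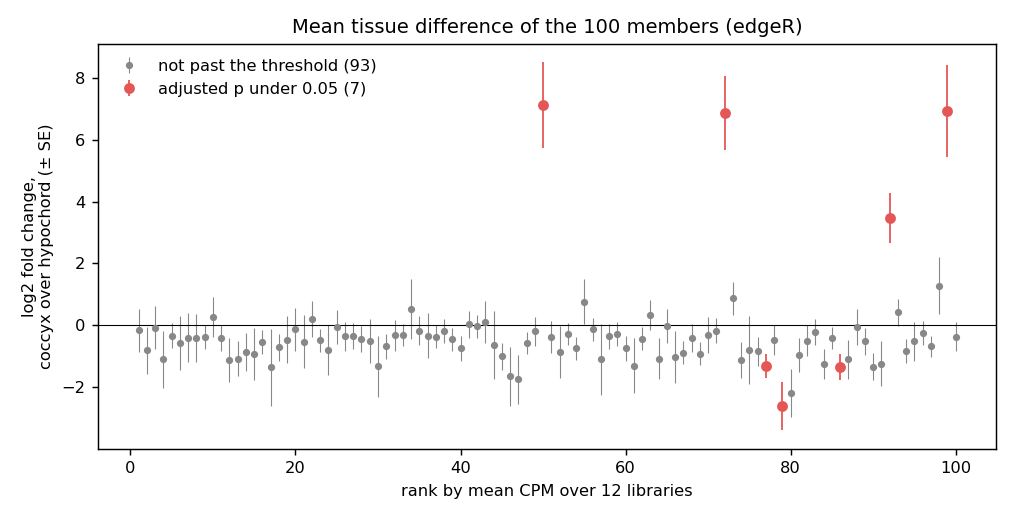
Mean log2 fold change of coccyx over hypochord (vertical, ± SE, edgeR fit of 12 libraries) for the 100 members by rank in mean CPM (horizontal). The 7 members past an adjusted p of 0.05 are in red, 4 above zero and 3 below, none of them among the 100 highest of both tissues. Most of the others lie a little below zero, while the median over all genes tested was 0.51.

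Most members leaned to the hypochord by a small amount. The median log2 fold change was -0.45 over the members and 0.52 over the other genes tested, and 86 members were below zero while 66.3% of all genes were above it. Every hypochord library detected fewer genes than every coccyx library, and the early hypochord libraries detected the fewest. The part of this in the gap between the medians was not tested. Scaled to total counts the medians were -0.23 and 0.76, so the scaling moved both by a like amount and the gap between them by little. In 11 members all 6 pairs were higher in hypochord, against 2.46% of all genes, and in 2 members all 6 pairs were higher in coccyx, against 14% (5 against 0.955% and 3 against 18% by total counts). No member had its 6 coccyx libraries wholly above its 6 hypochord libraries, against 6.08% of all genes, or wholly below them, against 0.222%.

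In group 1, 38 of 39 members were on the hypochord side, with a median log2 fold change of -0.41 (31 of 39 by total counts), and none was called. In this mean over the periods, all 9 members of group 5 were higher in hypochord (median -1.25) and all 6 of group 6 were higher in coccyx (median 5.17). Single periods were less uniform. In group 5, 3 members were higher in coccyx in the early period and 1 at stage 61. In group 6, 5 of 6 were higher in coccyx at stage 65.

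At the early period, 3 members were higher in coccyx, against 23.1% of all genes, and 2 higher in hypochord, against 0.639% (3 and 1 by total counts). By total counts only the members' count is given, and nothing is read from it. The early hypochord libraries detected 7376 and 7508 genes and the early coccyx libraries 13397 and 13919, and the part of this in the shares was not tested. The coccyx members were ranks 50, 72 and 92, with log2 fold changes of 11.54 ± 2.84, 7.97 ± 2.19 and 5.43 ± 1.53 (SE), and without coccyx stage 58 these were 6.83, 4.67 and 0.89. These values are described without a test, since the members entered the list through coccyx. In hypochord rank 90, also outside the 100 highest of coccyx, stood at -2.66 ± 0.77 (SE). It measured 364 and 1707 CPM at stage 56, and 540 and 2523 CPM at stage 58, in coccyx and hypochord.

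Rank 67 was the 1 called member that was among the 100 highest of both tissues, at position 83 in coccyx and 56 in hypochord. It measured 1145 CPM in coccyx and 8961 CPM in hypochord at stage 56, and 1464 and 3522 CPM at stage 58. Both early hypochord libraries lay above both early coccyx libraries, and its log2 fold change was -2.59 ± 0.67 (SE; edgeR adjusted p = 0.0216). With the pair block it was -2.53 and did not pass (adjusted p = 0.0508), and the call was also lost without coccyx stage 56 (-2.32), coccyx stage 58 (-2.89) or hypochord stage 56 (-2.17). Of the 78 members among the 100 highest of both tissues, edgeR called this 1 and DESeq2 called 6. That set was chosen on the same libraries and limits the difference a member can show, so these counts are described only.

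None of the 5 early calls held with the pair block. The block instead called ranks 30, 61 and 91 of group 3, at -4.40, -2.73 and -3.08, with 1.55% of all genes called. DESeq2 called 14 members, with 33.6% of all genes called. Without coccyx stage 58 the count of 5 was 0, and without hypochord stage 58 it was 2.

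At stage 61 and at stage 65, edgeR called no member and no gene (0% of all genes). At an unadjusted p under 0.05 there were 8 members at stage 61, against 7.49% of all genes, and 3 at stage 65, against 8.24%. DESeq2 called 2 members at each stage, against 2.97% and 3.05% of all genes.

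Whether the tissue difference itself changed with stage was tested as an interaction. From the early period to stage 61, edgeR called none of the members, while it called 4.31% of all genes; at an unadjusted p under 0.05 there was 1 member, against 21.1%. From stage 61 to 65 it called none of the members and 0% of all genes, with 2 members at an unadjusted p under 0.05, against 1.39%. DESeq2 called 1 member for the first interval, against 14.6%, and 0 for the second, against 0.0171%. Group 3 did not keep 1 side: hypochord was higher in 11 of 11 members in the early period (median log2 fold change -2.93) and at stage 61 (-1.23), and coccyx was higher in 11 of 11 at stage 65 (0.82), under all 3 scalings.

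The comparisons of stages within a tissue follow the members through metamorphic climax. The ranking used the mean over these same libraries, so a member could enter the list through a stage at which it was high. Its stage differences were then in part fixed by the choice. Counts of members in these comparisons are described only, and nothing is read from them. From the early period to stage 61 in coccyx, no member passed edgeR's test, and no gene did (0%). At an unadjusted p under 0.05 there were 2 members, against 1.21% of all genes, and DESeq2 called 0, against 0.0171%. Both stage 61 libraries were above both early libraries in 22 members, against 10.6% of all genes, and below them in 2, against 14.7%. The median log2 fold change was 0.32 over the members and -0.13 over the other genes. By total counts these were -0.02 and -0.48, so the sign of the members' median depended on the scaling.

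From stage 61 to 65 in coccyx, edgeR again called no member and no gene (0%), while 18 members had an unadjusted p under 0.05, against 1.52% of all genes. All 18 were members of group 2 and all were lower at stage 65. Group 2 was highest in stage 61 replicate 2, and those libraries took part in choosing the members. A fall to stage 65 was thus in part favoured by the choice, and the list was not chosen anew for fits that leave libraries out. DESeq2 called 9 members, each lower at stage 65, against 0.534% of the 7863 genes to which it gave an adjusted p. Without both stage 61 replicate 2 libraries, a choice made after seeing the data that leaves 1 stage 61 library per tissue, assumed to vary like the others, 13 members had an unadjusted p under 0.05 in edgeR, against 1.04% of all genes, and DESeq2 called 4, against 0.215%. Both stage 65 libraries were below both stage 61 libraries in 30 members, against 13.3% of all genes, and above them in 5, against 18.6%. The members' median was -0.29 and that of the other genes 0.06, and by total counts 0.21 and 0.56, so here too the sign of the members' median depended on the scaling.

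Rank 7, an example from group 2, measured 8603 and 41436 CPM in coccyx at stage 61 and 779 and 926 CPM at stage 65. Both stage 65 libraries were below both stage 61 libraries. The log2 fold change was -5.61 ± 1.65 (SE), described without a test, since a fall from stage 61 was in part favoured by the choice of members. In hypochord the same gene measured 1323 and 36014 CPM at stage 61 and 1444 and 2641 CPM at stage 65, so the replicates of stage 61 lay on either side of the stage 65 libraries and the difference rested on replicate 2.

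All 19 members of group 2 were lower at stage 65 than at stage 61 in both tissues, under all 3 scalings. The median log2 fold change was -4.50 in coccyx and -2.92 in hypochord, and -3.77 and -2.09 by total counts. Without both stage 61 replicate 2 libraries the median was -2.82 in coccyx, with 2 of 19 members higher at stage 65, and 1.01 in hypochord, with 19 of 19 higher, so in hypochord the direction rested on that replicate. From stage 61 replicate 1 to the stage 65 libraries, the summed share of the group went from 12.5% to 3.07% and 1.72% in coccyx, and from 2.53% to 6.97% and 6.31% in hypochord.

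From the early period to stage 61 in hypochord, edgeR called no member, while 14.4% of all genes were called. The early hypochord libraries behind this comparison detected 7376 and 7508 genes and those of stage 61 detected 11587 and 11644, and the part of this in the share was not tested. At an unadjusted p under 0.05 there were 7 members, against 28.9% of all genes. DESeq2 called 5, against 24.9%. Both stage 61 libraries were above both early libraries in 10 members, against 33.5% of all genes, and below them in 19, against 9.2%. The median log2 fold change was -0.16 over the members and 0.44 over the other genes. All 9 members of group 5 were higher at stage 61, by a median of 1.72. Rank 79, which entered the list through hypochord, differed by 4.57 ± 1.49 (SE), with 40 and 151 CPM in the early libraries and 5729 and 104 CPM at stage 61. The groups overlapped, since stage 61 replicate 2 stayed at the early level. Without the stage 58 libraries of both tissues, an alternative chosen after seeing the data, some members were called. That fit leaves a single early library per tissue, and the share of all genes called in it was not set beside the members.

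From stage 61 to 65 in hypochord, edgeR called no member and no gene (0%). At an unadjusted p under 0.05 there were 19 members, against 4.2% of all genes, and DESeq2 called 2, against 0.8%. Of the 19, 9 belonged to group 2 and 9 to group 3, and these were lower at stage 65. Here too the stage 61 libraries took part in choosing the members, so a fall was in part favoured by the choice. Without both stage 61 replicate 2 libraries, 1 member had an unadjusted p under 0.05, against 2.04% of all genes, and DESeq2 called 1, against 0.242%. All 11 members of group 3 were lower at stage 65, by a median of -4.60, and of -3.20 without those libraries. Rank 90 is an example, with 8111 and 1244 CPM at stage 61 and 345 and 618 CPM at stage 65. Both stage 65 libraries were below both of stage 61, and the log2 fold change was -3.56 ± 0.80 (SE), described without a test, since this gene was not in the list without hypochord stage 61 replicate 1. Both stage 65 libraries were below both stage 61 libraries in 17 members, against 18.9% of all genes, and above them in 13, against 15.9%. The medians of the members and of the other genes were both -0.01, and 0.37 and 0.38 by total counts.

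**Figure D5:**
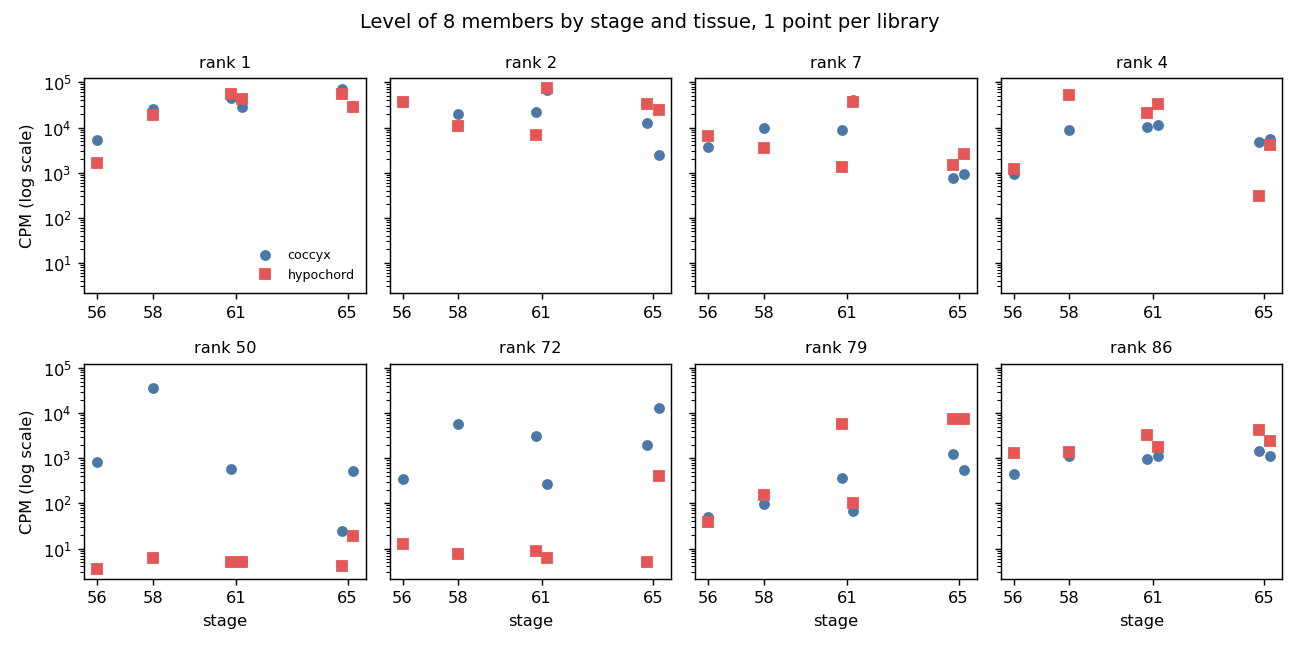
Level of 8 members (CPM, log axis) by stage, 1 point per library, circles for coccyx and squares for hypochord; at stages 61 and 65 replicate 1 is drawn to the left of replicate 2. Rank 50 lies between 4 and 19 CPM in all 6 hypochord libraries and between 5 and 36437 CPM in coccyx, while rank 86 is higher in hypochord in every pair.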

How the data were processed

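RNA from laser-captured coccyx and hypochord was sequenced as amplified low-input cDNA, per the labels' protocols. The deposited files hold raw counts per gene identifier. HTSeq 0.13.5, cutadapt 1.8.1 and FastQC are listed in the submitters' processing notes. Which aligner, genome build and annotation were used is not given in the sources used here. Amplified copies cannot be told apart without molecular identifiers, and splitting of reads between near-identical genes could not be examined without names.

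Depth ran from 1918822 to 7271829 counts per library, and the last 37 rows, which held 0.442% to 2.64% of a library, were kept in the totals but not ranked. Counts were fitted with edgeR 4.0.16 in R 4.3.3 (filterByExpr by group, TMM, robust quasi-likelihood fit, 6 groups of tissue and period, 6 residual degrees of freedom, common biological coefficient of variation 0.785). P-values were adjusted by Benjamini-Hochberg over all 11729 genes tested, with a threshold of 0.05. The script was tested on simulated data. Alternatives were DESeq2 1.42.0 (Wald test), DESeq2 size factors, total counts, other filters on low counts, 8 groups by stage, each library left out, and a replicate block. Within a period, same-numbered libraries of both tissues deviated together. For the early period, stage 61 and stage 65 the correlation over genes was 0.299, 0.345 and 0.194. Over the members it was 0.705, 0.629 and 0.456. These libraries were taken as pairs in the pair block and the counts of pairs, while the reported fit has no block. Between stages the correlation ran from -0.120 to 0.234 over genes and from -0.411 to 0.353 over the members. Numbers were not taken as pairs across stages.

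The members, groups and tests were chosen with earlier results of these data known. Members are named by this rule: the most abundant, the called members with the largest fold change, and those at the limit of the list, with identifiers for at most 2 in each direction; other members were chosen as examples after their values were seen. Replicate 3 entered only the test on each library's own top genes. Gene lists and cell type markers were not used, since they need gene names.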

Additional observations from a re-analysis of the deposited data

How the results depend on the processing

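The counts in this paragraph are of members only. The share of all genes called was not set beside each setting, so they show how the count moved and nothing about the members against other genes. For the mean tissue difference, 7 members were called in the reported fit. DESeq2 called 16, a filter of at least 10 counts in at least 8 libraries 4, total counts 4, the fit without both stage 61 replicate 2 libraries 4, and DESeq2 without them 14 (both chosen after seeing the data). Leaving out each library gave 1 to 9. For the early tissue difference, with 5 called, separate groups for the stages gave 11, DESeq2 14, the pair block 3, the fit without both stage 58 libraries (also chosen after seeing the data) 1, DESeq2 without the stage 61 replicate 2 libraries 11, and leaving out each library 0 to 7. From the early period to stage 61 in hypochord, where none was called, separate stages gave 6, DESeq2 5, no filter on low counts 1, the fit without the stage 58 libraries 8, and leaving out each library 0 to 1. The change of the tissue difference over the same interval gave 1 with DESeq2 and 0 to 1 without single libraries. DESeq2 called 9 members in coccyx and 2 in hypochord from stage 61 to 65, and 2 each for the tissues at stages 61 and 65; leaving out each library gave 0 to 0 for these, for coccyx from the early period to stage 61, and for the change of the tissue difference from stage 61 to 65. DESeq2 without the stage 61 replicate 2 libraries gave 1 in coccyx and 9 in hypochord from the early period to stage 61, 4 and 1 from stage 61 to 65, 2 for the first change of the tissue difference, and 5 and 4 for the tissues at stages 61 and 65. Without those libraries the 19 members at an unadjusted p under 0.05 from stage 61 to 65 in hypochord became 1. The cause was not tested.

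With tissue labels swapped within the pairs (replicate block), the difference of -7.47 points in the own top 100 share passed at an exact p of 0.0312. It was -6.60 for the own 1000 genes (exact permutation p = 0.0417), -2.34 for the own 10 (exact permutation p = 0.486), -6.79 with the last rows kept (exact permutation p = 0.208), and -11.1 to -4.10 without single libraries. The pair block changed the tissue calls given in the report. It was not used for the stage comparisons within a tissue. There a term for the replicate number was added to the fit instead, and no member was called. The members' share stayed at 45.1% to 45.3% when single libraries were left out of the ranking, and was 43.0% for a list ranked by the median. For the 12 tissue differences of called members (ranks 50, 67, 72, 77, 79, 86, 90, 92 and 99), 187 alternative values kept direction and call, 77 kept the direction and lost the call, and 0 reversed. The alternatives share most of their libraries, so a kept direction is no independent support. All of these members but rank 67 were outside the 100 highest of 1 tissue, so their direction was also in part fixed by the choice. The list was not chosen anew for any alternative. In the 12 fits without 1 library, the mean tissue call was lost in 9, 10 and 10 for ranks 77, 79 and 86 on the hypochord side. On the coccyx side it was lost in 1, 0, 3 and 2 for ranks 50, 72, 92 and 99. The depth counts amplified copies, so counting intervals understate the error.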
